A study of Ettlia oleoabundans with 10 samples.

Results

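The families described here are the 100 most abundant of those whose transcript level stayed within a 2-fold window across 10 cultures of an oil-storing green alga, the single-celled Ettlia oleoabundans. They were selected on the measured levels themselves, from 10122 scaffold families. Each library was divided by its median ratio to the family geometric mean, and a family passed when its highest and lowest log2(scaled value + 1) differed by at most 1. Of all families, 1953 passed, and the 100 with the highest mean scaled value are called members. Because all 10 libraries took part in the choice, the steadiness of the members is a description and not a result, and it carries no test.

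The cells, of strain UTEX # 1185, grew phototrophically at 25 °C and were taken after 6 days. They differed in the nitrate or the salt of the medium. The nitrate cultures had 0, 0.38, 0.75, 1.5 or 3 mM nitrate, the salt cultures had 75, 150, 300 or 600 mM NaCl, and the control had 9 mM nitrate with 42 mM NaCl. All shared the modified Bold Basal Medium with vitamins B1 and B12 and light kept on throughout at 22 to 28 µmol photons per m2 and s. The labels give the salt of the nitrate cultures and the nitrate of the salt cultures only for the control. Each condition was represented by 1 poly(A)-selected library, so no level below has a replicate error.

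In any cell some transcripts code for proteins that are needed all the time, such as those of ribosomes, protein turnover, the cytoskeleton and central metabolism. Transcripts of this kind are often called housekeeping transcripts, and a steady one serves as an internal reference when other transcripts are compared by RT-PCR. In green algae, loss of nitrate is known to lower the expression of photosynthesis and growth genes while storage lipid and starch build up, and high salt adds osmotic and ionic stress. Which of these functions the members serve is not known here: families carry numeric identifiers, the file does not pair them with gene names, and the identity of the cultures could not be checked against marker genes. Whether the deposited values were scaled for the length of a family is not stated either, so the order of families by level is that of the deposited values. The values give no RNA content per cell, so a level that is steady here is steady relative to the other families of the same library.

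The total of the deposited values was lowest at 0.38 mM nitrate, 362924, and highest at 300 mM NaCl, 695913. The smallest scaling factor was 0.864, at 0.38 mM nitrate, and the largest 1.21, at 150 mM NaCl. Titles of these last 2 libraries hold a code starting with RAA, where the other 8 have c1 to c8, and what the codes mean was not found in the labels. Without the 2 RAA libraries, 2851 families passed, and only 50 of the members were again among the 100 most abundant. All 100 members still passed, which was nearly fixed in advance, since leaving out libraries can widen a span only through the rescaling. The scaling also mattered. In the deposited values without scaling, 60 of the 100 members stayed within 2-fold, and with equal library totals 61 did.

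The members covered a wide range of levels. Their mean scaled value ran from 112 to 2676, with a median of 169.7, and all 100 were above 0 in every library. The lowest deposited value of any member in any library was 71.4. Together they made up between 4.51% of the library total, at 600 mM NaCl, and 6.74%, at 0.38 mM nitrate. In the control they made up 6.06%.

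Family 239_c0 was the most abundant member and the only member among the 50 most abundant families of the alga, where it ranked 7. Its scaled value was 2216, 2016, 2375, 2726 and 2313 at 0, 0.38, 0.75, 1.5 and 3 mM nitrate, 3284 in the control, and 3059, 3189, 3212 and 2373 at 75, 150, 300 and 600 mM NaCl. The control and the 3 salt cultures up to 300 mM lay above the other nitrate cultures, and 600 mM NaCl lay among the latter. Its highest value was 1.63 times its lowest, whereas in the deposited values its span was 1.15 on the log2 scale, outside the limit.

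The next 4 members by level were 402_c0, 13_c0, 122_c0 and 146_c0, with mean scaled values of 1343, 1328, 1186 and 1134. All 4 had their highest value at 300 mM NaCl, between 1468 for 146_c0 and 1756 for 13_c0. Their lowest values lay in different cultures. Families 402_c0 and 122_c0 were lowest at 600 mM NaCl, at 883 and 778. Family 13_c0 was lowest at 0.38 mM nitrate, at 884, and 146_c0 at 0.75 mM nitrate, at 774. These families used nearly the whole window, with spans of 0.92 to 0.99 on the log2 scale.

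**Figure D1:**
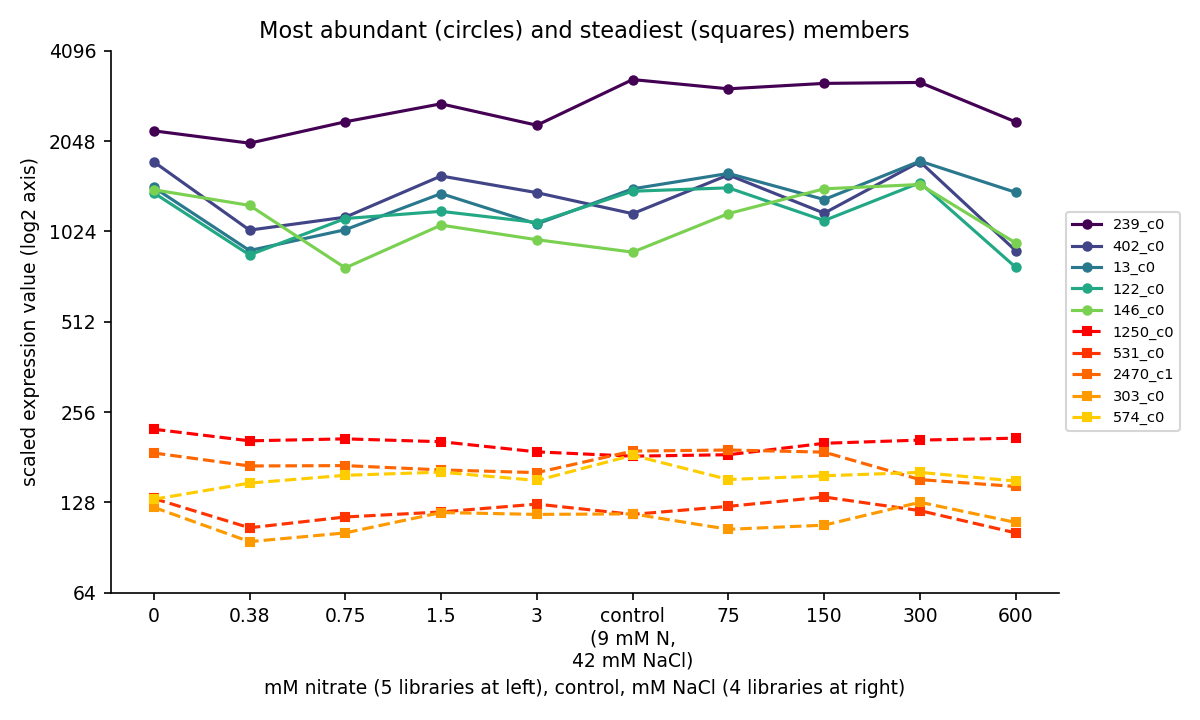
Scaled expression value (log2 axis) of the 5 most abundant members (circles) and the 5 members with the smallest span (squares) in each of the 10 libraries. Family 239_c0 lies between 2016 and 3284 in all libraries, and 1250_c0, steadiest under this scaling, lies between 183 and 225.

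With this scaling, the member with the smallest span was 1250_c0. Its scaled value was 225, 205, 209, 204 and 189 at 0 to 3 mM nitrate in rising order, 183 in the control, and 185, 202, 207 and 209.6 at 75 to 600 mM NaCl. The highest value, without nitrate, was 1.23 times the lowest, in the control, and its coefficient of variation (SD over mean) over the 10 libraries was 6.40%. Within this narrow range it rose at every step from the control to 600 mM NaCl, one of 3 members to do so with 584_c0 and 885_c0, which are named after their values were seen. The share of all families that did so was not counted.

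Family 531_c0 ranged from 101 at 600 mM NaCl to 133.5 at 150 mM NaCl, a span of 0.39 on the log2 scale. Family 2470_c1 ranged from 145 at 600 mM NaCl to 191 at 75 mM NaCl, a span of 0.40. Family 303_c0 had its lowest value, 94.8, at 0.38 mM nitrate and its highest, 128, at 300 mM NaCl, a span of 0.43. Family 574_c0 ranged from 131 without nitrate to 184 in the control, a span of 0.48. The highest and lowest values of these 4 families and 1250_c0 lay in 7 different libraries. By level the 5 families ranked between 381, for 1250_c0, and 758, for 303_c0, among all families. Which members came out steadiest depended on the scaling. In the deposited values the spans of these 5 ran from 0.54 for 1250_c0 to 0.82 for 531_c0, and 1802_c0 and 117_c0, named after their values were seen, had smaller ones of 0.38 and 0.39.

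Over all members the span had a median of 0.81 on the log2 scale, a 1.75-fold difference between the highest and lowest library. It was at most 0.5 in 7 members, at most 0.8 in 50 and above 0.9 in 30. The coefficient of variation ran from 6.40% to 28.2%, with a median of 18.1%. The members just inside the limit were 1569_c0, with a span of 0.992 from 94.1 at 600 mM NaCl to 188 at 3 mM nitrate, and 13_c0, with 0.989. Just outside it, at levels as high as the members', were 1609_c0 with 1.005 and 771_c0 with 1.005. The lowest value of 1609_c0 was 106, at 0.75 mM nitrate, and its highest 214, at 300 mM NaCl. By level, 303_c0 was the last member with a mean of 112.2, and 1524_c0, with 111.3, was the next.

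Under this scaling, most families at the members' levels lay outside the limit. A total of 758 families had a mean at least as high as the lowest member, and 100 of them, 13.2%, lay within the limit. The median span of these 758 families was 1.74 on the log2 scale, a 3.33-fold difference. Members were 1 of the 50 most abundant families, 9 of the first 100, 17 of the first 200 and 58 of the first 500. Among all families with a mean scaled value of at least 1, 20.8% lay within the limit.

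**Figure D2:**
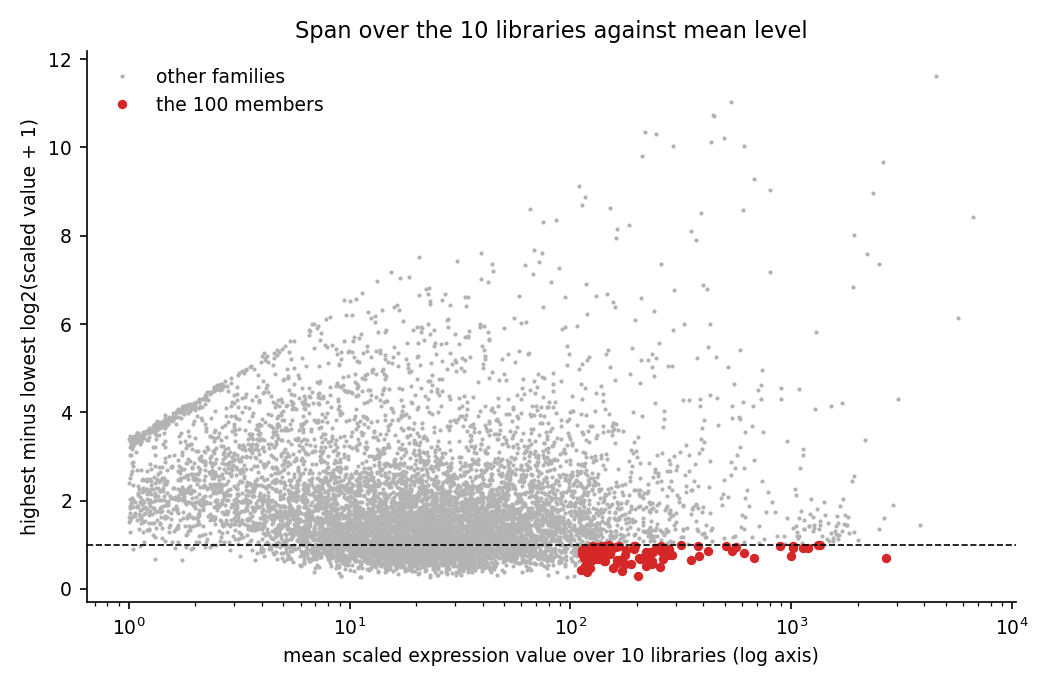
Span over the 10 libraries, as the highest minus the lowest log2(scaled value + 1), against the mean scaled value (log axis) of each family with a mean of at least 1. The 100 members (red) lie under the dashed limit of 1 at means of 112 and above, and 658 families of the same levels lie above it.

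When the families were ranked by mean scaled value and cut into 10 equal parts, the share within the limit was highest in the middle. It was 29.9% and 29.7% in the parts with median levels of 20.4 and 28.0. It fell to 21.7% in the part with a median of 64.1 and to 14.9% in the most abundant part, with a median of 151. On the other side it was 1.38% in the part with a median of 1.81, and the 7.21% of the lowest part belonged to families with mean values under 1, whose span the added 1 compresses. With 0.1 added instead of 1, 1638 families in place of 1953 passed, and the same 100 members were chosen.

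**Figure D3:**
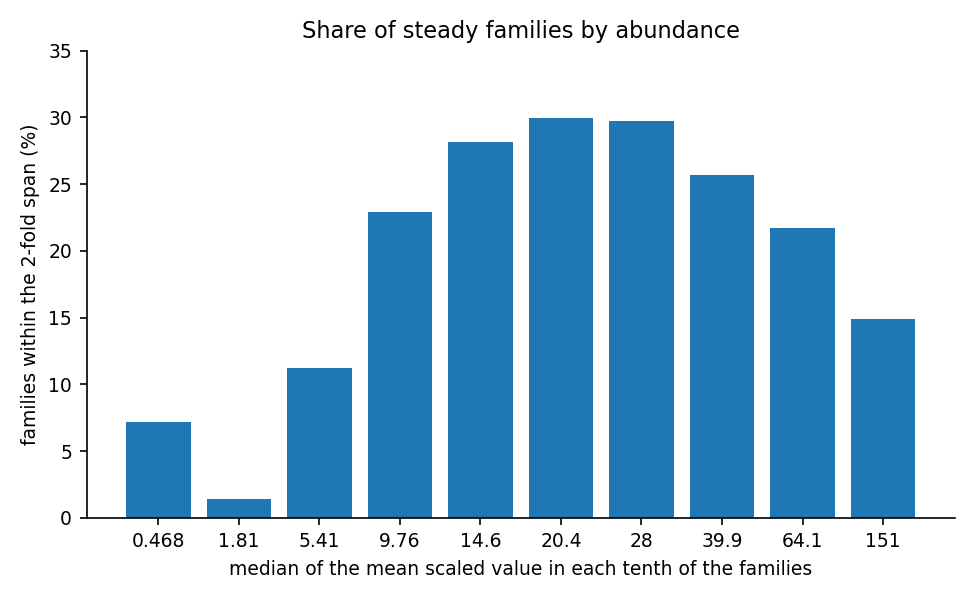
Share of families (%) within the 2-fold span in each of 10 equal parts of the families by mean scaled value, labelled with the part's median level. The bars rise to 29.9% at a median of 20.4 and fall to 14.9% in the most abundant part, from which all members come.

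The members did not all drift the same way. The median log2 ratio of the members to the control was between -0.15, at 150 mM NaCl, and 0.03, at 0 mM nitrate, in the 9 other libraries. The library in which a member was highest was 300 mM NaCl for 23 members, 0.38 mM nitrate for 21 and 0 mM nitrate for 18. The lowest library was 0.38 mM nitrate for 19 members, 600 mM NaCl for 19 and 150 mM NaCl for 17. The culture with 0.38 mM nitrate, an RAA library with the lowest total, was an extreme for 40 members, some high and some low. Of all families with a mean of at least 1, 9.84% had their highest value at 300 mM NaCl, 16.8% had it at 0.38 mM nitrate and 15.5% had it without nitrate. The lowest value fell at 0.38 mM nitrate in 19.1% of them, while 600 mM NaCl held it in 16.4% and 150 mM NaCl in 9.54%. At 0.38 mM nitrate the members were thus near the shares of all families. The choice used these values, so nothing is read from the counts.

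Against the control, 17 of the 100 members were at least 1.5-fold away without nitrate, 11 higher and 6 lower, where 46.3% of 9021 families were. At 0.38 mM nitrate 20 members were, 5 higher and 15 lower, beside 45.2% of all families. At 0.75, 1.5 and 3 mM nitrate 6, 5 and 3 members were, all lower, beside 28.4%, 16.8% and 9.31% of all families. Of all families, 1987 were higher and 2191 lower without nitrate, and 1974 and 2105 at 0.38 mM nitrate. At 0.75 mM 1302 were higher and 1264 lower, at 1.5 mM 533 and 983, and at 3 mM 267 and 573. In the salt cultures 1 member was at 75 mM NaCl (23.1% of all families), 8 at 150 mM (39.4%), 13 at 300 mM (43.7%) and, at the highest salt, 15 (52.1%). The members were chosen by these same values, so the low counts follow from the choice.

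The pair of libraries that lay closest for the members was 1.5 and 3 mM nitrate, with a median absolute log2 difference of 0.11 over the members and 0.15 over the families with a mean of at least 1. The members were chosen for small differences between these libraries, and the cultures of the pair differed in nitrate, so neither value stands for a replicate error. The pair farthest apart was 0.38 mM nitrate and 300 mM NaCl, with 0.47 over the members and 0.76 over all. Between the control and 75 mM NaCl the median absolute difference over the members was 0.15, and between the control and 600 mM NaCl it was 0.28.

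What variation the members had was shared in part. The first principal component of their log2 levels held 32.1% of the variance among members, the second 18.9% and the third 16.2%. The first set 0.38 and 0.75 mM nitrate on one side against 300 mM NaCl most of all on the other. These extremes, 0.38 mM nitrate (an RAA library) and 300 mM NaCl, also had the lowest and the highest total of deposited values. Libraries on the side of 0.38 mM nitrate had totals up to 511359, at 3 mM nitrate. Those on the other side had totals from 571998, at 600 mM NaCl, upward. A link between this component and the library total was not tested. The second set 600 mM NaCl and 0.38 mM nitrate against 1.5 mM nitrate, 3 mM nitrate and the control, and the third set 0 mM nitrate against 600 mM NaCl.

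Families 584_c0 and 1809_c0 had the highest scores on the first component. The scaled value of 584_c0 was 348, 177, 227, 191 and 195 at 0 to 3 mM nitrate in rising order, 208 in the control, and 261, 264, 343 and 349 at 75 to 600 mM NaCl. It was therefore as high without nitrate as at the highest salt, and lowest at 0.38 mM nitrate, the neighbouring concentration. Family 1809_c0 had 136 in the control and 161 to 191 in the 4 salt cultures, and its value of 147 without nitrate stood above the 97.0 to 114 of the other 4 nitrate cultures.

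At the other end, 418_c0 and 1269_c0 had the lowest scores. Family 418_c0 had 408 without nitrate, then 679, 632, 651 and 580.0 at 0.38 to 3 mM nitrate, 642 in the control, and 385, 368, 346 and 353 at 75 to 600 mM NaCl. Its levels fell into a higher set of 5 cultures and a lower set made up of the 4 salt cultures and the one without nitrate. With a coefficient of variation of 28.2% it was the most variable member by that measure. Family 1269_c0 had 330.1 at 0.38 mM nitrate and 185 to 284 in the other 9 libraries.

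**Figure D4:**
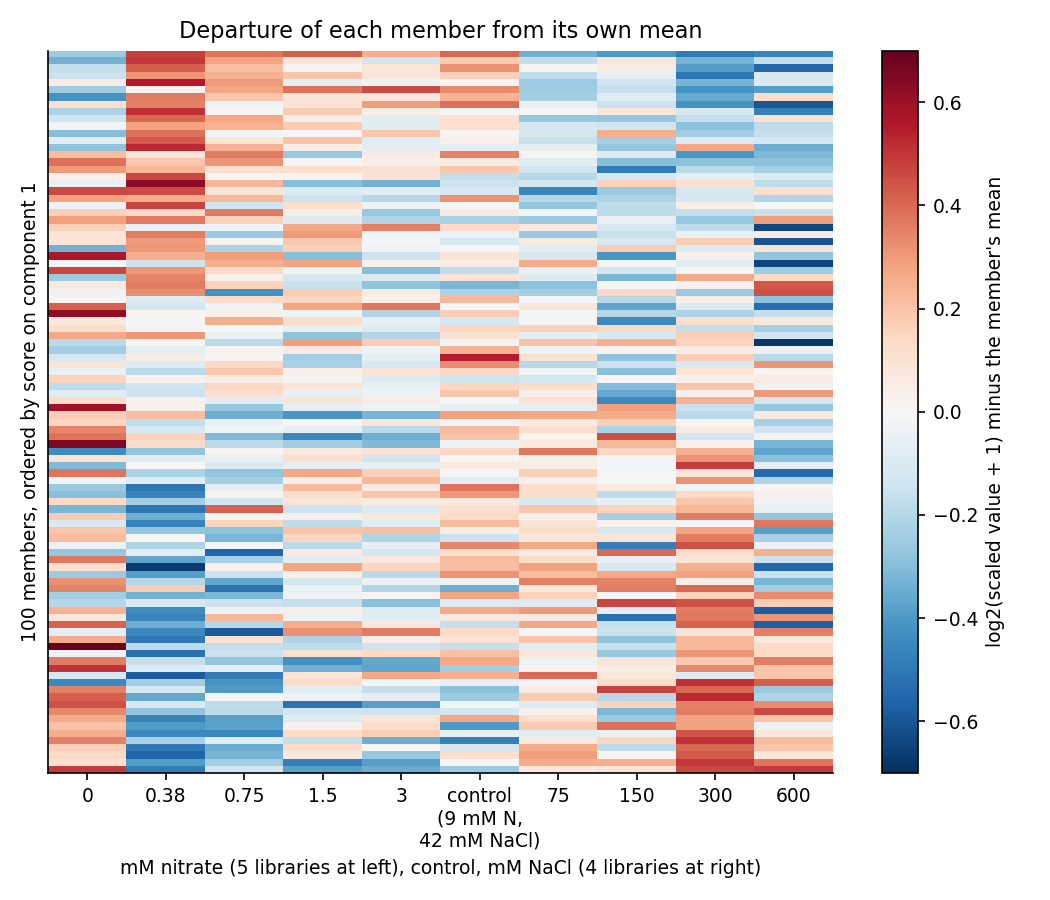
Departure of each of the 100 members (rows, ordered by score on the first component) from its own mean over the 10 libraries (columns), in log2(scaled value + 1). Rows at the top, led by 418_c0, are high at 0.38 mM nitrate and low at 300 mM NaCl, and rows at the bottom, ending with 584_c0, are the reverse.

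Members that followed a concentration in order were counted without the share of all families beside them, so the counts describe the members only. Family 804_c0 was the only member that rose at every step of nitrate, from 201 without nitrate to 303 in the control, and no member fell at every step. Along NaCl, 991_c0 and 1569_c0 fell at every step, the former from 250.3 in the control to 126 at 600 mM. These families are named after their values were seen. The 3 lower nitrate cultures did not overlap the 3 higher ones in 21 members, of which 10 were lower and 11 higher at low nitrate, beside 31.3% of all families in either direction. The 4 salt cultures did not overlap the 6 nitrate cultures (control included) in 9 members, beside 10.8% of all families. In 7 of the 9, 418_c0 among them, the salt cultures were lower, and in 1809_c0 and 1791_c0 they were higher, for 1791_c0 by as little as 120.8 at 75 mM against 120.7 in the control. The choice of steady families used these values, so nothing is read from the counts.

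Whether steadiness in some cultures carries over to others can be read from libraries that took no part in a choice. The same rule was applied to the 6 nitrate libraries alone, control included, where 4939 families passed and the 100 most abundant had means of at least 195. In the 4 salt libraries, which were not used, 86 of these 100 spanned at most 2-fold, with a median span of 1.63-fold. Of all 344 families with means that high, 56.4% did, with a median of 1.91-fold. Of all 4939 families that were steady over nitrate, 63.0% spanned at most 2-fold over the salt libraries. These spans leave out any shift between the nitrate and the salt libraries. Over all 10 libraries together, 40 of the 100 stayed within 2-fold.

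The reverse choice was made in the same way. On the 5 libraries from 42 to 600 mM NaCl, 4369 families passed, and the 100 most abundant had means of at least 359. Over the 5 unused libraries from 0 to 3 mM nitrate, 44 of the 100 spanned at most 2-fold, with a median span of 2.07-fold. Of all 234 families with means that high, 26.1% did, with a median of 2.65-fold, and of the 4369 families steady over salt 65.0% did. Over all 10 libraries together, 16 of the 100 stayed within 2-fold. The numbers 86 and 44 cannot be set against each other directly, since they rest on 4 and 5 libraries and on different levels, and the difference between them was not tested. The members made up 41 of the 100 families chosen on nitrate and 17 of the 100 chosen on salt. Without the 2 RAA libraries, 82 of the 100 chosen on nitrate held over the remaining salt libraries and 59 of those chosen on salt over the remaining nitrate libraries.

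The slope of log2 level on the rank of concentration was fitted in the unused libraries for all families (limma with an intensity trend, Benjamini-Hochberg adjustment over all families). Among the 100 families chosen on nitrate, 0 had a called slope over the 4 salt libraries, where 0% of 9256 families did. At an unadjusted p under 0.05, 2 of the 100 had one, beside 11.3% of all families. Among the 100 chosen on salt, 0 had a called slope over the 5 nitrate libraries, where 0% of 8710 families did. At an unadjusted p under 0.05, 7 of these had one, beside 20.6% of all families. The median size of the slope per rank was 0.148 for the families chosen on nitrate and 0.166 for all. For those chosen on salt it was 0.148, beside 0.140 for all, so flatter slopes are not read from these counts.

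The absence of calls does not show that these families were level. Each condition had 1 library, so p and interval rest on the scatter about a straight line over ranks, and not on replicate cultures. For the families chosen on nitrate, the median fitted change from 75 to 600 mM NaCl was 0.44 in size on the log2 scale. The median half-width of its 95% interval was 1.34. The slope was above 0 in 22 of the 100 and below 0 in the others, but above 0 in 56 when 600 mM NaCl was left out. With all 4 salt libraries, the interval lay within a 2-fold change in either direction for 0 of the 100, beside 2.51% of 9256 families. For those chosen on salt, the median change from 0 to 3 mM nitrate was 0.59 in size with a median half-width of 1.42. Again 0 of the 100 had an interval within 2-fold, beside 7.82% of 8710 families. Their slope was above 0 in 27 of the 100 and below 0 in the others, but above 0 in 68 when 0 mM nitrate was left out.

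Leaving out 1 library at a time showed which cultures limit the set. The 100 most abundant families chosen on 9 libraries were then read in the library left out. With 0 mM nitrate left out, 46 of the 100 were still within 2-fold once it was added, and of the 54 others 53 were higher without nitrate than in every other library. Of all 2462 families that were steady on those 9 libraries, 79.3% stayed within the limit once it was added. Among those that left it, 389 were higher and 120 lower without nitrate.

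The library at 600 mM NaCl gave the opposite direction among abundant families. Of the 100 chosen without it, 70 stayed within the limit, 28 were lower at 600 mM and 2 were higher. Among all 3107 families steady on the other 9 libraries, 62.6% stayed, with 866 higher and 296 lower. At 0.38 mM nitrate 68 of the 100 stayed, with 25 lower and 7 higher, beside 80.9% of all families. The remaining libraries limited the set less, and the counts lay near the share of all families. At 300 mM NaCl 86 stayed, beside 88.4% of all, and at 150 mM 89, beside 89.8%. At 0.75 mM nitrate 93 stayed, beside 89.1%. It was 96 to 99 at 1.5 mM nitrate, 3 mM nitrate, 75 mM NaCl and in the control, beside 94.6% to 97.9%. The order of the 3 most limiting libraries depended on scaling. With equal library totals 48 of the 100 stayed at 600 mM NaCl and 61 at 0 mM nitrate, and in the deposited values 60 stayed both at 0 and at 0.38 mM nitrate and 65 at 600 mM NaCl. These scalings were added after the data were seen.

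**Figure D5:**
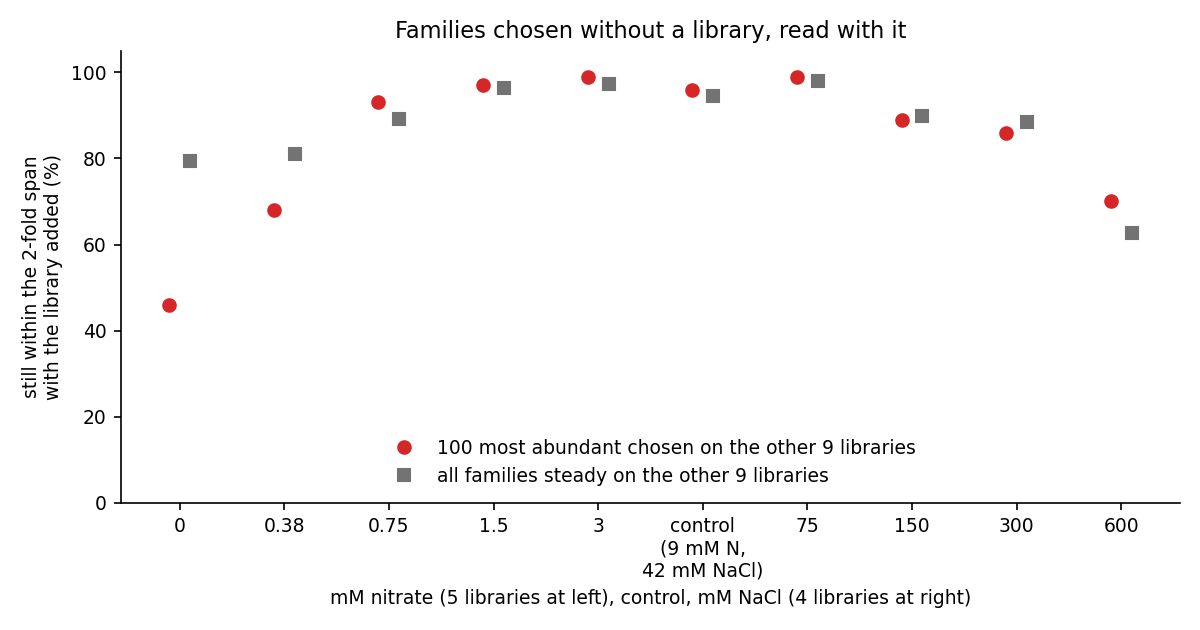
Share still within the 2-fold span once a library that took no part in the choice is added, for the 100 most abundant families chosen on the other 9 libraries (circles) and for all families steady on those 9 (squares). The circle for 0 mM nitrate is at 46% and that for 600 mM NaCl at 70%, while 1.5 mM nitrate, 3 mM nitrate, the control and 75 mM NaCl are at 96% or more.

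The abundant families that were not members can be counted in a similar way, from values the rule used and in part over the same families as above, so the counts add no support. Of the 658 families at the members' levels that lay outside the limit, 159 would have passed with a single library left out. For 70 of these that library was 0 mM nitrate, which was the highest value in 68 of them. For 44 it was 0.38 mM nitrate, the lowest value in 34, and for 36 it was 600 mM NaCl, the lowest value in 29. A family can be counted for more than 1 library. For the other 499 no single library accounted for the span.

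The identifiers hold a second number, so that some families share a scaffold number and differ in the part after it. Of the members, 14 had at least 1 other family of the same number, 19 in all, and none of these was itself a member. Another family of the same number existed for 4.92% of all families and for 8.71% of the 758 families at the members' levels; the difference from the members was not tested. The values of these 19 took no part in choosing the member beside them. Their spans ran from 0.57 to 5.78 on the log2 scale with a median of 1.69, 4 lay within the limit and 8 spanned more than 2 log2 units. The share of 4 in 19 was near that of all families within the limit, 19.3%. The labels and the file do not say what a shared number stands for.

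The most abundant of these members was 418_c0, whose partners were 418_c2, with a mean of 73.5 and a span of 0.57, and 418_c1, with a mean of 7.61 and a span of 1.48. Family 418_c2 had 78.5 without nitrate, 77.6 in the control, and 76.0, 58.0, 69.1 and 86.7 at 75 to 600 mM NaCl. Its lowest value of all libraries was at 150 mM NaCl and its highest at 600 mM NaCl. The values of 418_c2 at 75, 150 and 300 mM NaCl lay below its control, and only that at 600 mM lay above. For 418_c0 all 4 salt values lay below the control. Family 199_c1 ran from 229 at 150 mM NaCl to 392 at 600 mM NaCl. It had 4 partners, with means of 9.78 to 35.5 and spans of 0.73 to 2.08. Family 296_c0 was highest at 300 mM NaCl, with 362, where its partner 296_c2 had its lowest value, 23.2.

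The widest difference within a number was that of 1809_c0 and 1809_c1, named after their values were seen. The member 1809_c0 spanned 0.97 on the log2 scale, between 97.0 and 191. Family 1809_c1 had 2.04, 1.11, 3.42, 13.0 and 15.3 at 0 to 3 mM nitrate in rising order, 12.6 in the control, and 23.1, 30.8, 83.4 and 115 at 75 to 600 mM NaCl. Its values were thus lowest in the 3 cultures with least nitrate and highest in the 4 salt cultures, over a span of 5.78. Family 9_c2, with 99.6 to 167 in all libraries, shared its number with 9_c0, which had 76.1 to 107 at 0 to 0.75 mM nitrate and 673 to 812 from 1.5 mM to the control.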

How the data were processed

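Values of 10122 scaffold families in 10 libraries were taken from the deposited table. They are recorded as signal: the deposited values are never negative, their totals differ between libraries, and per the file headers they carry no unit. Any scaling for length or depth by the authors, the reference and the way families were formed are among details not given in the sources used here. Bowtie 0.12.8, RSEM 1.2.0 and edgeR 3.0.8 are named, per the submitters' processing notes. Read depth is unknown, so no counting interval was computed.

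Each library was divided by the median ratio of its values to the geometric mean over the 8445 families above 0 everywhere. In choices on fewer libraries, the geometric mean came from those libraries alone. Spans are on log2(scaled value + 1), which shortens those of low families. The members, the lists and the alternatives were chosen with earlier results of these data known. Named families are the most abundant, the steadiest, those at each limit, the extremes of the first component and members with partners of the same number. Slopes were fitted with limma 3.58.1 (R 4.3.3) for families with a mean of at least 1, with a threshold of 0.05 on adjusted p. Scaling, choice and fit were checked for errors on simulated data with less noise and larger set changes than these data. That check does not show how well small changes would be found here. Gene lists planned for named families could not be matched. The table writes 0.375 mM where the labels give 0.38 mM.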

Additional observations from a re-analysis of the deposited data

How the results depend on the processing

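Without 600 mM NaCl 3107 families passed the limit in place of 1953, and leaving out any other single library gave 2000 (without 75 mM NaCl) to 2462 (without 0 mM nitrate). A limit of 0.8 gave 1008 families and one of 1.2 gave 2999. Of the 100 members, 60 were chosen again from the deposited values, 56 with equal library totals, 50 with a limit of 0.8, 54 with a limit of 1.2 and 50 without the 2 RAA libraries. With 1 library left out, 46 (without 0 mM nitrate) to 99 (without 75 mM NaCl) were chosen again. All 100 stayed within the limit each time, which a span over fewer libraries nearly ensures, so members were displaced by more abundant families that then passed. The other scalings, rank measures and pseudocount and the SD as measure of steadiness chose 79 to 100 again.

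The choices on 1 series were repeated under other scalings, limits, pseudocounts, set sizes and without the RAA libraries. Of 100 families chosen on nitrate, 70 (at a limit of 0.8) to 94 (at a limit of 1.2) held within the limit over salt. Of 100 chosen on salt, 35 (at a limit of 0.8) to 66 (at a limit of 1.2) held over nitrate. With the limit kept at 1, the ranges were 73 to 89 and 36 to 61. No slope of a chosen family was called in any alternative fitted, with smallest adjusted p (limma) from 0.0516 to 1. Of these 32 fits, 26 called 0 of all families and the others at most 1.92%, so the absence of calls is near the background. No paired analysis was possible because each condition has 1 library. Without counts, the error of a single library at a given level cannot be stated, and a 2-fold window cannot be set against it.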
